A study of Mus musculus with 4 samples.

Results

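Aminoacyl-tRNA synthetases join each amino acid to its tRNA, the step that supplies the ribosome. Animal cells keep a cytosolic set and a mitochondrial set, and both are encoded in the nucleus. The mitochondrial genes mostly carry a symbol ending in 2. Several cytosolic enzymes sit in the multisynthetase complex, held together by the noncatalytic proteins encoded by Aimp1, Aimp2, and Eef1e1. When amino acids run short or the ER is stressed, translation of the transcription factor ATF4 rises, and ATF4 is known to activate many cytosolic synthetase genes together with genes of amino acid synthesis and uptake. Activated B cells enlarge and divide, and antibody-forming cells make large amounts of protein.

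All 38 listed members of the family were found among 31053 genes, 37 under their own symbol and Mars1 under its older symbol Mars. They comprised 20 cytosolic synthetase genes, the 3 genes for the noncatalytic complex proteins, and 15 mitochondrial synthetase genes. Aimp2 was placed with the cytosolic genes despite the ending of its symbol. The classes follow the listed symbols and do not show that a cytosolic member, such as Gars or Kars, serves the cytosol alone. All 38 passed the limit of 100 UMIs over the cells kept, with 675 (Pars2) to 47643 (Eprs) UMIs each. A UMI is a molecular identifier that counts 1 captured mRNA molecule.

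The cells were B cells of WT B6 mice (6 to 12 weeks old), purified from spleen by negative isolation and cultured in vitro. Bregs-CpG (2 samples) received the TLR9 agonist CpG B ODN 1668 for 3 days. Bregs-TLR (2 samples) received the same CpG culture and, in its last 5 hours, LPS, PMA, and ionomycin. Both groups thus share the CpG treatment, and neither holds untreated cells. Whether the 2 samples of a group came from separate mice is not given in the sources used here. The barcodes end in a library number, 5 to 8, that names no sample. Every value is therefore given per library, no condition is assigned to a library, and no test between conditions was made.

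The libraries kept 4003 to 5621 cells and 44842982 to 63638158 UMIs each, 18534 cells in all, and 29 barcode sequences occurred in more than 1 library. Median UMIs per cell were 8752 and 8785 in libraries 5 and 6 and 10355 and 10077 in libraries 7 and 8. The median share of mitochondrially encoded UMIs was 7.22%, 7.18%, 4.61%, and 4.65% in the same order. The B cell markers Cd79a, Cd79b, Ms4a1, and Pax5 were detected in every library. Cd79a, a part of the B cell receptor, was at 3072, 3239, 1057, and 1033 UMIs per 1000000 UMIs (CPM), and Ms4a1, which encodes CD20, was at 1499 and 1510 CPM in libraries 5 and 6 against 32.0 and 37.0 in libraries 7 and 8. T cell, myeloid, and erythroid lists summed to at most 4.22 CPM, with Cd3e, Cd4, Cd8a, Lyz2, S100a8, and S100a9 at 0, and all 4 NK cell markers were at 0.

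Cytosolic synthetase mRNA was more abundant in libraries 7 and 8 than in libraries 5 and 6. The 23 cytosolic members together took 1102 CPM in library 5 (95% interval 1092–1111), 1084 in library 6 (1075–1092), 2558 in library 7 (2546–2570), and 2439 in library 8 (2424–2453). The 15 mitochondrial members together took 145 (141–148), 149 (146–153), 199 (196–203), and 197 (192–201) CPM. The cytosolic sum of library 7 was 2.32-fold that of library 5, and the mitochondrial sum 1.37-fold. Library 8 against library 6 gave 2.25-fold and 1.31-fold. Mitochondrial members therefore made up 11.6% and 12.1% of the family's UMIs in libraries 5 and 6 and 7.23% and 7.46% in libraries 7 and 8. All intervals are exact and cover counting error only, not differences between cells, cultures, or mice.

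**Figure D1:**
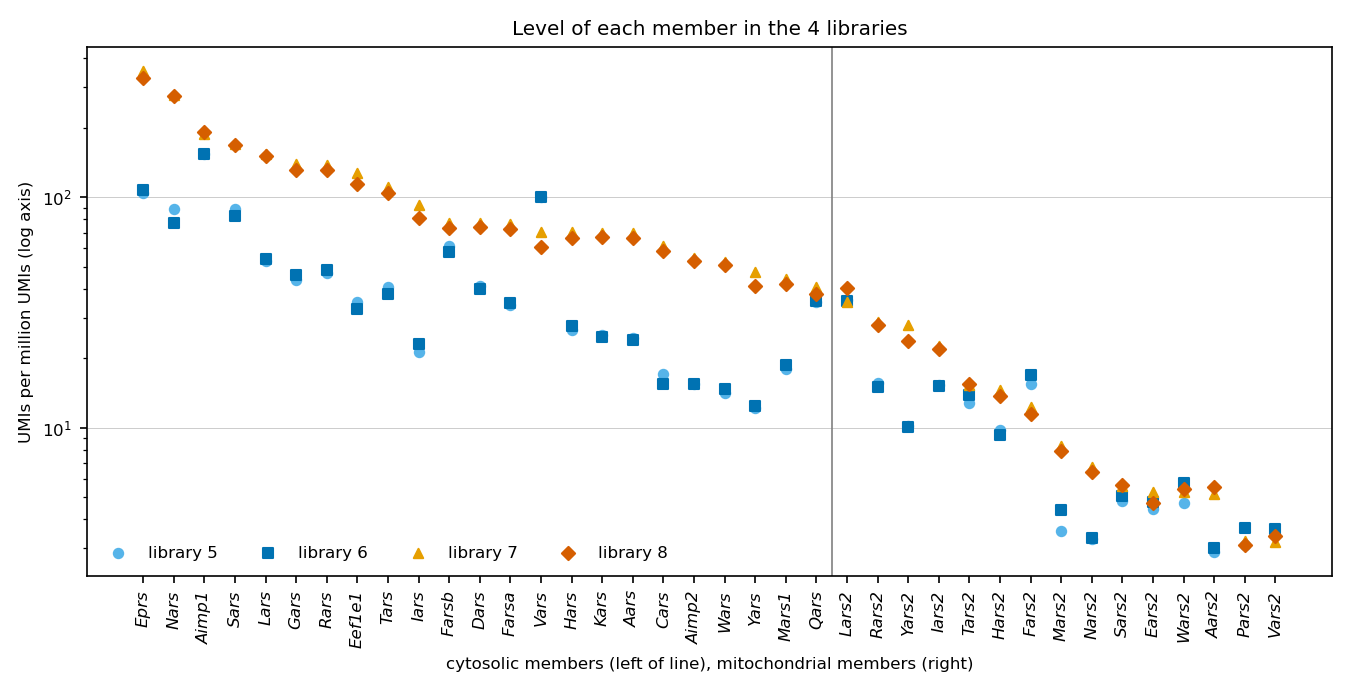
CPM of each member (log axis) in libraries 5 to 8, with the 23 cytosolic members left of the line and the 15 mitochondrial members right of it, each ordered by library 7. Libraries 7 and 8 lie above libraries 5 and 6 for 22 of the 23 cytosolic members, Vars being the exception.

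The cytosolic members differed far less within each of these library pairs than across them. Between libraries 5 and 6, log2 ratios of the 23 cytosolic members ran from −0.20 to 0.12, and between libraries 7 and 8 from −0.22 to 0.03. A ratio of at least 1.5-fold was used as the mark of a difference. By that mark 19 of 23 cytosolic members were higher and 0 lower in library 7 than in library 5, with a median log2 ratio of 1.51, whereas 5 of 15 mitochondrial members were higher and 0 lower, with a median of 0.27. Of all 11174 genes with at least 100 UMIs, 30.3% were higher and 23.1% lower in that comparison, with a median of 0.16. In library 8 against library 6, 19 cytosolic members were higher and 1 lower (median 1.46) and 5 mitochondrial members higher (median 0.18), against 25.9% of all genes higher and 25.3% lower (median 0.06).

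The other 2 comparisons across the pairs reuse the same libraries. Library 8 over library 5 gave 19 cytosolic members higher and 1 lower and 5 mitochondrial members higher, with 27.3% of all genes higher and 24.3% lower. Library 7 over library 6 gave 19 and 0 cytosolic and 6 and 0 mitochondrial members, with 28.6% of all genes higher and 24.1% lower. No member passed 1.5-fold in library 6 over library 5 (1.14% of all genes higher, 0.814% lower) or in library 8 over library 7 (1.13% higher, 2.04% lower). Scaling by TMM moved the median of all genes in library 7 over library 5 from 0.16 to −0.01, that of the cytosolic members from 1.51 to 1.34, and that of the mitochondrial members from 0.27 to 0.10. The split of all called genes moved with it from 3381 higher and 2585 lower to 2641 and 3091. With mitochondrially encoded, ribosomal protein, and immunoglobulin genes taken out of the totals the split was 2523 and 3188, and the median of the mitochondrial members in library 7 over library 6 changed from 0.15 to −0.02.

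**Figure D2:**
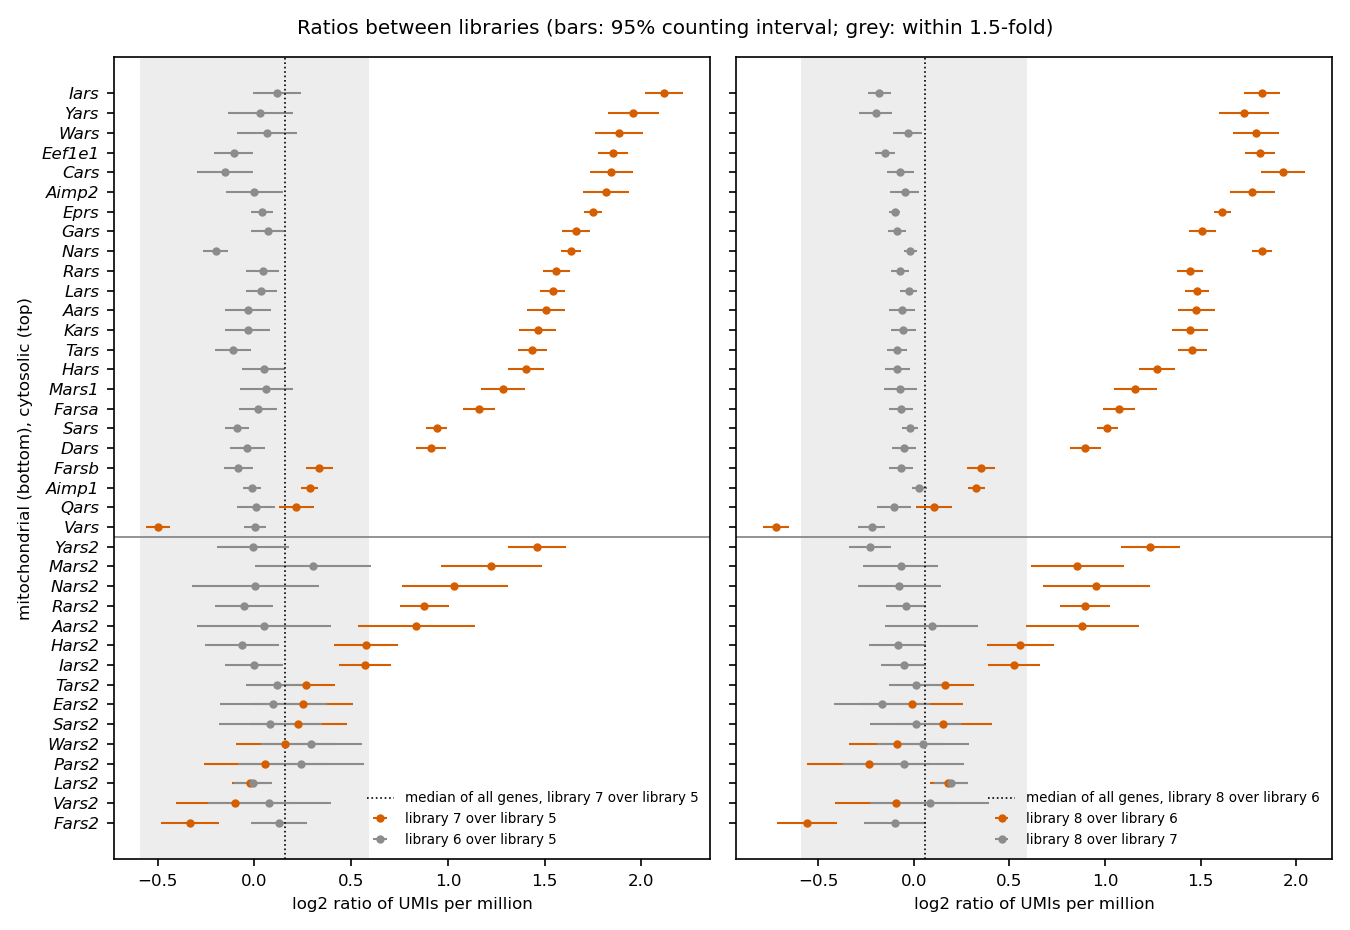
Log2 ratios of CPM with 95% counting intervals for the 15 mitochondrial (bottom) and 23 cytosolic (top) members, library 7 over 5 and library 8 over 6 in orange, and library 6 over 5 and library 8 over 7 in grey points. Most orange cytosolic points lie right of the shaded 1.5-fold zone, Vars lies left of 0, and no grey point leaves the zone.

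Iars, which charges isoleucine tRNA and lies in the multisynthetase complex, showed the widest range of the cytosolic members. It was at 21.3, 23, 92.2, and 81.3 CPM in libraries 5, 6, 7, and 8, a log2 ratio of 2.12 (2.02–2.22) for library 7 over 5 and 1.82 (1.73–1.92) for library 8 over 6. Eprs, which charges both glutamate and proline tRNA in the same complex, was at 105, 108, 352, and 328 CPM, with ratios of 1.75 (1.71–1.80) and 1.61 (1.57–1.66). In both genes the values of libraries 7 and 8 lay far above those of libraries 5 and 6. In library 7 over library 5, 30.3% of all genes were at least 1.5-fold higher. Of the 8 synthetases of the complex, 7 were that much higher (median 1.5).

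Qars, the glutamine enzyme, was the member of the complex outside that count. It was at 35.1, 35.4, 40.9, and 38 CPM, with ratios of 0.22 (0.13–0.31) and 0.11 (0.01–0.20), so that the libraries of the 2 pairs nearly met. The noncatalytic partners of the complex were unlike each other. Aimp2 was at 15.5, 15.5, 54.4, and 52.7 CPM and Eef1e1 at 35.2, 32.7, 127, and 114, log2 ratios of 1.82 (1.70–1.94) and 1.85 (1.77–1.93) for library 7 over 5. Aimp1 was at 154, 153, 188, and 192 CPM, a ratio of 0.28 (0.24–0.33), below the 1.5-fold mark although the 2 pairs did not overlap.

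The 12 cytosolic synthetases outside the complex also stood mostly higher in libraries 7 and 8. Of these, 10 were at least 1.5-fold higher in library 7 than in library 5, against 30.3% of all genes. Cars, the cysteine enzyme, was at 17.1, 15.4, 61.6, and 58.7 CPM, ratios of 1.84 (1.73–1.96) and 1.93 (1.81–2.04). Yars, the tyrosine enzyme, was at 12.2, 12.4, 47.2, and 41.1 CPM, ratios of 1.96 (1.83–2.09) and 1.73 (1.60–1.86). Each level in libraries 7 and 8 was more than 3 times that in libraries 5 and 6 for these genes. Wars, the tryptophan enzyme and a gene also known to respond to interferon gamma, was at 14.1, 14.8, 52.1, and 51.0 CPM, with ratios of 1.88 (1.76–2.01) and 1.79 (1.67–1.91). Nars, the asparagine enzyme, was at 89.1, 77.6, 277, and 273 CPM, with ratios of 1.64 (1.59–1.69) and 1.82 (1.77–1.87).

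The phenylalanine enzyme is built from the products of Farsa and Farsb, and the ratios of these genes differed. Farsa was at 34.2, 34.6, 76.3, and 72.9 CPM, a log2 ratio of 1.16 (1.08–1.24) for library 7 over 5. Farsb was at 61.1, 57.7, 77.1, and 73.6 CPM, a ratio of 0.34 (0.27–0.40), and the intervals of the subunit ratios did not overlap.

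Vars, which charges valine tRNA, went the other way. It was at 99.7, 99.8, 70.5, and 60.5 CPM in libraries 5, 6, 7, and 8, highest in libraries 5 and 6. Its log2 ratio was −0.50 (−0.56 to −0.44) for library 7 over 5, short of 1.5-fold, and −0.72 (−0.79 to −0.65) for library 8 over 6. The first ratio passed 1.5-fold under 3 of 8 alternatives, at −0.67 with TMM, −0.65 with DESeq2 size factors, and −0.69 with the reduced totals. It was the only one of the 23 cytosolic members whose ratio was below 0 in either comparison.

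Among the mitochondrial members, Yars2 stood highest in libraries 7 and 8 relative to libraries 5 and 6. It was at 10.1, 10.1, 27.8, and 23.7 CPM, with log2 ratios of 1.46 (1.31–1.61) for library 7 over 5 and 1.24 (1.08–1.39) for library 8 over 6. Mars2 was at 3.57, 4.40, 8.33, and 7.95 CPM, Nars2 at 3.30, 3.31, 6.76, and 6.42, Rars2 at 15.6, 15, 28.7, and 27.9, and Aars2 at 2.90, 3.00, 5.17, and 5.52. These 5 genes, the enzymes for tyrosine, methionine, asparagine, arginine, and alanine, were the mitochondrial members past 1.5-fold in library 7 over library 5. Of all genes 30.3% were that much higher, so 5 of 15 lay near the share of all genes. Hars2 and Iars2 fell just short, with log2 ratios of 0.58 (0.41–0.74) and 0.57 (0.44–0.70).

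The other 8 mitochondrial members lay within 1.5-fold between libraries 5 and 7. Lars2, the leucine enzyme, was at 35.7, 35.5, 35.1, and 40.2 CPM, a log2 ratio of −0.03 (−0.12 to 0.07). Sars2 was at 4.79, 5.07, 5.61, and 5.65 CPM, and Vars2 at 3.43, 3.62, 3.21, and 3.39, with intervals that included 0. Fars2, the phenylalanine enzyme of mitochondria, was lower in libraries 7 and 8, at 15.5, 16.9, 12.3, and 11.5 CPM, with ratios of −0.34 (−0.48 to −0.19) and −0.56 (−0.72 to −0.40). Both were short of 1.5-fold, but the ratio of library 8 over 6 passed it under 6 of 8 alternatives and ran from −0.69 to −0.54 over them. Pars2, Vars2, and Aars2 rested on 675 to 866 UMIs, so differences of the size seen for Tars2 (0.27) would not be resolved for them.

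For many amino acids the list holds different genes for cytosol and mitochondria. These allow 16 matched pairs (Eprs stands in the glutamate and the proline pair, and Fars2 in those of both phenylalanine subunits). Cytosolic members without a listed mitochondrial counterpart, Gars and Kars among them, are in no pair. The ratio of library 7 over library 5 was higher for the cytosolic gene in 15 of 16 pairs, by at least 1.5-fold in 13. Library 8 over library 6 gave 15 of 16 and 12. Within the pairs of libraries, library 6 over library 5 and library 8 over library 7, the cytosolic ratio was higher in 5 of 16 each, and in none by 1.5-fold.

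The tryptophan pair differed most, with log2 ratios of 1.88 for Wars and 0.16 for Wars2 in library 7 over library 5, a gap of 1.73. Proline followed, with 1.75 for Eprs and 0.06 for Pars2. The methionine pair was nearly even in that comparison, with 1.29 for Mars1 and 1.22 for Mars2, the latter on 160 UMIs in library 5. It was less even in library 8 over library 6, with 1.16 and 0.85. Valine was the exception, with −0.50 for Vars and −0.10 for Vars2 in library 7 over library 5.

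**Figure D3:**
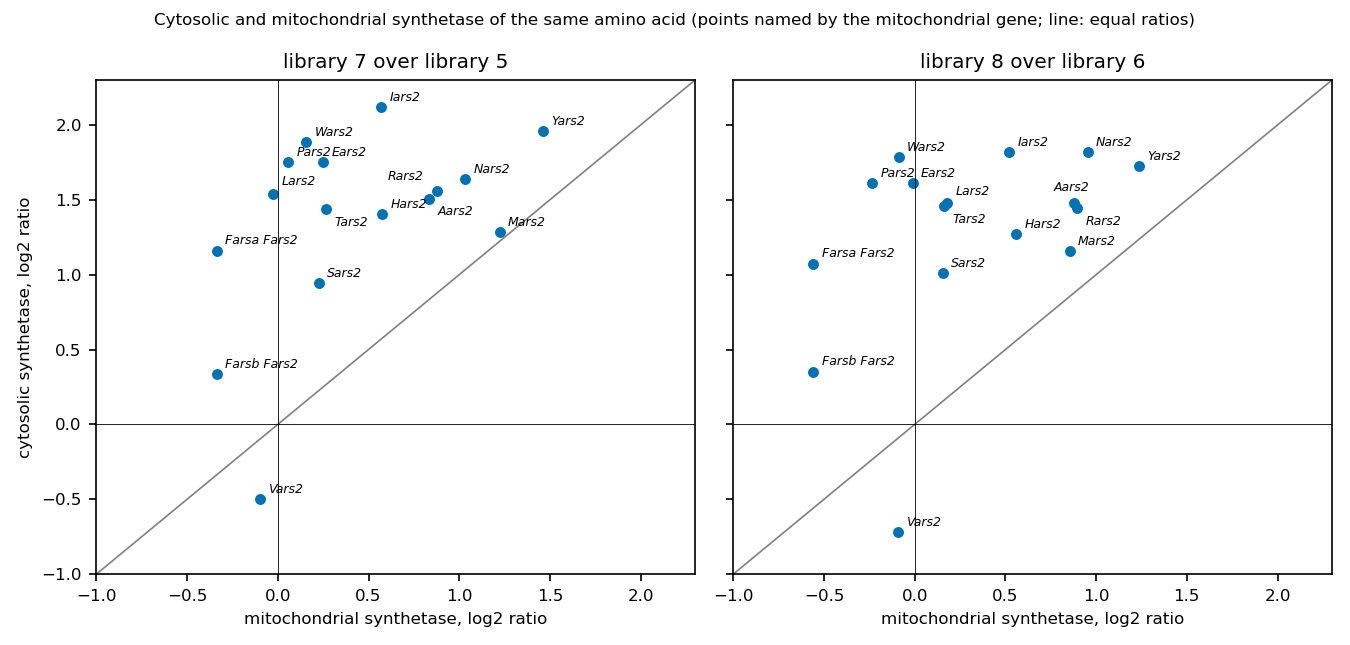
Log2 ratio of the cytosolic gene (vertical axis) against that of the mitochondrial gene of the same amino acid (horizontal axis), for library 7 over 5 and library 8 over 6, where the line marks equal ratios. In each panel 15 of 16 points lie above the line and the valine point lies below it.

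The histidine genes Hars and Hars2 lie head to head on chromosome 18 of GRCm38, Hars at 36766528–36783205 on the minus strand and Hars2 at 36783008–36792562 on the plus strand, so that the genes overlap on opposite strands and their annotated starts lie 197 bases apart. Hars was at 26.6, 27.5, 70.5, and 66.4 CPM, a log2 ratio of 1.40 (1.31–1.5) for library 7 over library 5. Hars2 was at 9.75, 9.32, 14.5, and 13.7 CPM, with a ratio of 0.58 (0.41–0.74). The genes of this shared start region thus differed in their ratios, with intervals that did not overlap. Across the family the members were spread over many chromosomes, 15 for the cytosolic and 9 for the mitochondrial members.

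A set of 12 cytosolic synthetases is commonly described as targets of ATF4 (Aars, Cars, Eprs, Gars, Iars, Lars, Mars1, Nars, Sars, Tars, Wars, Yars). Of these 12, 12 were at least 1.5-fold higher in library 7 than in library 5, with a median log2 ratio of 1.65 and a lowest value of 0.94 (Sars). Of the other 8 cytosolic synthetases, 5 were higher, with a median of 1.04. In library 8 over library 6 the counts were 12 of 12 and 5 of 8, with medians of 1.56 and 0.98. Against these stand the 30.3% and 25.9% of all genes given above. The set was chosen with earlier results of these data known, so its contrast with the other 8 is a description and not an independent check.

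Promoter windows from RefSeq, 250 bases before to 50 bases after the start on GRCm38.p6, were at hand for 29 of the 38 members. The letters TGATGCAA, a form in which ATF4 sites of amino acid response genes are written, were searched on both strands. They occurred in 4 of the 16 cytosolic and 0 of the 13 mitochondrial members with a window, and in 1.03% of all 27025 genes with a window. A gene was counted if any of its windows held the letters. Some genes, Aimp1 among them, had more than a single window, so the length searched differed between genes. All 4 genes were among the 8 ATF4-associated synthetases with a window. The matches in 3 of them, with 10 bases on either side, are printed 5′ to 3′ on the strand of the gene because they mark the synthetase genes that hold such letters, with the match in capitals (TTGCATCA is TGATGCAA read on the other strand).
Yars, chr4:129189896-129189923, plus strand: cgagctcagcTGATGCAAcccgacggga
Iars, chr13:49682127-49682154, plus strand: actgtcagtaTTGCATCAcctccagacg
Tars, chr15:11399656-11399683, minus strand: aggagtcccgTTGCATCAgctggttagc

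Counted from the RefSeq start, the first base of the match lay at position 4 in Yars, 8 in Iars, and −15 in Tars. In GENCODE vM21 the Yars match overlapped a coding exon, that in Iars lay in a UTR exon, and that in Tars lay outside the gene. These 3 genes had log2 ratios of 1.96, 2.12, and 1.44 in library 7 over library 5. The ratio of the remaining gene with a match lay between those of Tars and Yars. Ratios of the cytosolic members with a window but without these letters ran from 0.22 (Qars) to 1.85 (Eef1e1). The ratios with and without the letters thus overlapped. A match of letters is not a measured binding site.

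CACGTG, the E-box read by MYC and related factors, is the same on both strands and overlaps no TGATGCAA match here. It was found in windows of 4 of 16 cytosolic and 1 of 13 mitochondrial members, against 8.09% of all genes. Of the ATF4-associated synthetases, 3 held both sets of letters, and the E-boxes of Iars and Tars, both among these 3, are shown beside their matches above.
Iars, chr13:49682051-49682076, plus strand: ccaatcgccaCACGTGttgtttgtag
Tars, chr15:11399624-11399649, minus strand: cgcctgtggcCACGTGgcgcacgcgc

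Farsb, with an E-box at position −39 and no TGATGCAA, had a log2 ratio of 0.34 in library 7 over library 5. Whether either set of letters goes with the ratios was not tested. GGAAGT, a core read by ETS factors, was found in windows of 6 of 16 cytosolic and 6 of 13 mitochondrial members, against 26.5% of all genes.

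Genes of the wider amino acid response were also mostly higher in libraries 7 and 8. Of 19 genes listed for that response, 17 were at least 1.5-fold higher in library 7 than in library 5 (median 1.69), against 30.3% of all genes, and 16 in library 8 over library 6 (median 1.65), against 25.9%. Asns, which makes asparagine, was at 18.1, 18.9, 120, and 117 CPM, a log2 ratio of 2.73 (2.62–2.83) for library 7 over 5. Chac1, which degrades glutathione, had a ratio of 2.80 (2.60–3.00), and Trib3, a pseudokinase induced by ATF4, one of 2.29 (2.06–2.52). Atf4 mRNA itself was at 94.5, 93.6, 305, and 277 CPM. Ddit4 and Ppp1r15a, stress genes of the same list, had ratios of 0.12 (−0.04 to 0.29) and 0.11 (−0.04 to 0.27).

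Amino acid transporters were mixed, with 7 higher and 3 lower of 12 tested in library 7 over library 5, against 30.3% higher and 23.1% lower of all genes. Slc7a5, the large neutral amino acid carrier, was at 10.1, 9.82, 48.9, and 40.6 CPM, and Slc1a4 and Slc6a9 had log2 ratios of 2.86 (2.48–3.27) and 2.72 (2.12–3.38). Slc43a1 and Slc43a2, carriers of branched-chain and other neutral amino acids, were lower, with −2.64 (−2.87 to −2.42) and −1.69 (−1.92 to −1.47), as was Slc38a9, a lysosomal arginine sensor, with −1.08 (−1.20 to −0.96).

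Other genes of tRNA charging gave 7 higher and 1 lower of 12 in that comparison, with the same 30.3% and 23.1% of all genes. Xpot, which exports tRNA from the nucleus, had a log2 ratio of 1.52 (1.40–1.64), and Aarsd1, an editing protein for mischarged alanine tRNA, one of 1.69 (1.42–1.97). Aarsd1 also passed 1.5-fold between libraries 7 and 8, at 9.59 against 6.24 CPM. The mitochondrial synthetase Cars2, outside the listed 38, had a ratio of 0.03 (−0.08 to 0.15), and Qrsl1, a subunit of the mitochondrial glutamine amidotransferase, was lower with −0.63 (−0.75 to −0.51). Of 5 cytosolic elongation factor genes 2 were higher and 0 lower (median 0.34). Of 11 mitochondrial translation factor genes 5 were higher and 0 lower (median 0.51). All genes gave 30.3% higher and 23.1% lower (median 0.16).

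The difference between libraries was spread over the cells. Each cell was thinned to 5000 UMIs, which left out 158, 114, 233, and 157 shallower cells in libraries 5 to 8. The median number of cytosolic member UMIs per cell was then 5, 5, 12, and 11, with quartiles of 3 to 6 in libraries 5 and 6, 9 to 16 in library 7, and 8 to 15 in library 8. Without thinning the medians were 8, 8, 25, and 23. The lower quartile of libraries 7 and 8 thus lay above the upper quartile of libraries 5 and 6, while the ranges of cells overlapped. The mean of mitochondrial member UMIs per thinned cell was 0.741, 0.757, 0.997, and 0.997, near 1 UMI, so no order of cells was read from it.

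**Figure D4:**
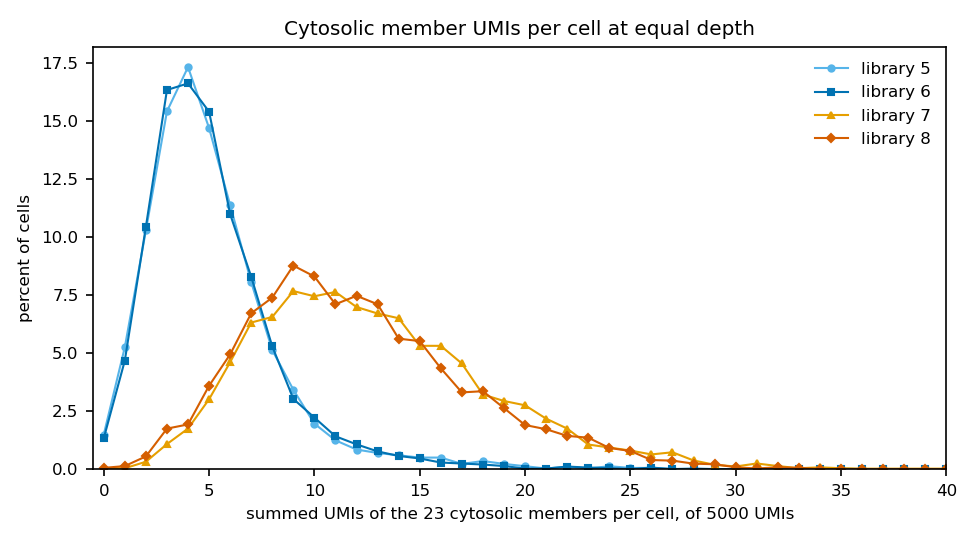
Percent of cells (vertical axis) by the summed UMIs of the 23 cytosolic members per cell after thinning to 5000 UMIs (horizontal axis), 1 line per library. Libraries 5 and 6 peak near their median of 5 and libraries 7 and 8 form a broader peak around medians of 12 and 11.

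Within libraries, cells rich in mitotic mRNA were compared with the rest, and the result was not the same in each library. Cells with at least 500 CPM from 12 mitotic genes (Mki67, Top2a, and others) were called mitotic-high, which is a range and not a cell type, since 243 cells lay between 400 and 600 CPM. They numbered 298, 378, 374, and 320 in libraries 5 to 8. Cells rich in the antibody joining chain mRNA Jchain were set apart first (24, 38, 55, and 28 cells), and 3874, 4298, 5192, and 3655 cells remained.

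In libraries 5 and 6 the summed cytosolic members were higher in mitotic-high than in remaining cells, with log2 ratios of 0.69 (0.66–0.72) and 0.70 (0.67–0.73). In libraries 7 and 8 the ratios were 0.00 (−0.02 to 0.03) and 0.00 (−0.03 to 0.03). The mitochondrial sum gave 0.03, 0.03, −0.12, and −0.08. At least 1.5-fold higher were 12, 12, 0, and 0 of the 23 cytosolic members and 2, 1, 1, and 1 of the 15 mitochondrial members. At least 1.5-fold lower were 0 cytosolic members in each library and 1, 0, 1, and 2 mitochondrial members. Of all genes tested, 14.6% were higher and 5.03% lower in mitotic-high cells of library 5, 14.7% and 5.69% in library 6, 9.14% and 5.59% in library 7, and 9.26% and 5.64% in library 8.

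Most members past the mark were ATF4-associated synthetases, a set chosen with earlier results of these data known. In libraries 5 and 6, 11 of 12 were at least 1.5-fold higher in mitotic-high cells, with medians of 1.23 and 1.24, against 1 of the other 8 cytosolic synthetases in each. In libraries 7 and 8 the counts were 0 of 12, with medians of 0.13 and 0.10, and 0 of 8. The share of all genes higher was 14.6% and 14.7% in libraries 5 and 6 and 9.14% and 9.26% in libraries 7 and 8. Cars was at 42.1 CPM in mitotic-high and 13.3 in remaining cells of library 5, and at 39.6 and 11.2 in library 6. In libraries 7 and 8 it was at 68.0 against 60.8 and at 78.4 against 55.8, so that both classes there exceeded the mitotic-high cells of libraries 5 and 6. Wars was the one outside the count, with log2 ratios of 0.01 (−0.35 to 0.34) in library 5 and 0.35 (0.07–0.62) in library 6. Farsa and Farsb were below 0 in 4 of 4 libraries. The Farsa intervals included 0 in library 5 (−0.43 to 0.03) and library 6 (−0.30 to 0.10). Hars2 and Nars2 were also below 0 in 4 of 4, while 10 cytosolic and 4 mitochondrial members were above 0 in 4 of 4. The Hars2 intervals included 0 in every library, and those of Nars2 in libraries 5, 6, and 7. Among the members above 0, the Sars2 intervals included 0 in every library, and Mars2 was at 0.00 (−0.44 to 0.42) in library 7. The share of all genes with the same direction in 4 of 4 was not counted, so these counts are not read against it. Pars2, on 23 to 38 UMIs in mitotic-high cells, was past 1.5-fold in 4 of 4. Its interval included 0 in library 8 (−0.10 to 1.27).

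**Figure D5:**
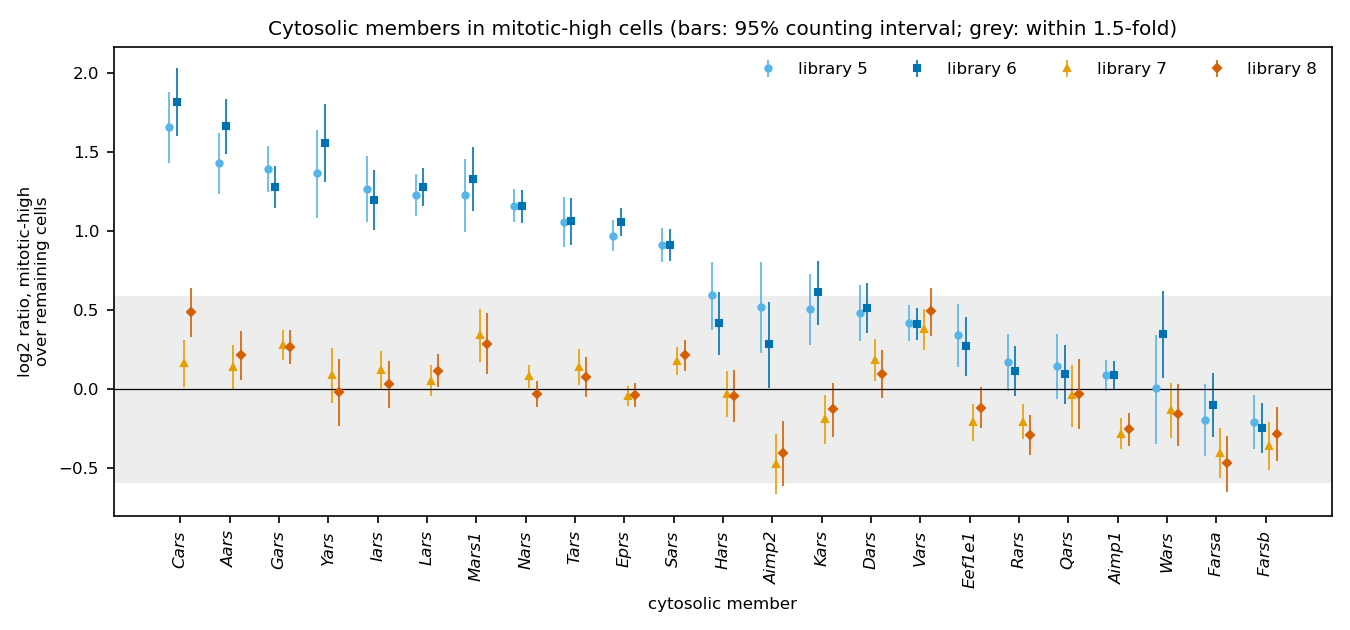
Log2 ratio of mitotic-high over remaining cells with 95% counting intervals for the 23 cytosolic members in libraries 5 to 8, ordered by library 5. The points of libraries 5 and 6 lie above the shaded 1.5-fold zone from Cars to Sars, and no point of libraries 7 and 8 leaves the zone.

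The amino acid response list showed the like split. In mitotic-high cells of library 5, 16 of 18 genes tested were at least 1.5-fold higher (median 1.61), in library 6 17 of 19 (median 1.63), and in libraries 7 and 8 2 of 19 each (medians 0.22 and 0.15). Of all genes tested, 14.6%, 14.7%, 9.14%, and 9.26% were that much higher in libraries 5 to 8. The 2 of 19 in libraries 7 and 8 thus lay near the share of all genes. Medians of the amino acid transporters showed no such split, at 0.14, 0.14, 0.16, and 0.17 in libraries 5 to 8. Of the transporters tested, 3 of 10, 4 of 10, 0 of 12, and 1 of 12 were at least 1.5-fold higher. In library 6, 1 transporter was that much lower, against 5.69% of all genes. Asns was at 75.7 CPM in mitotic-high and 8.74 in remaining cells of library 5, and at 178 and 111 in library 7. Atf4 was at 184 and 80.5 in library 5, and at 316 and 304 in library 7.

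Mitotic-high cells were deeper than remaining cells, with median UMIs of 17073, 17656, 15238, and 15182 against 8504, 8523, 10144, and 9859. Among cells of 10000 to 20000 UMIs, a range chosen after seeing the data, the medians were 15611 against 12449 in library 5 and 15545 against 12492 in library 6. The summed cytosolic ratio was then 0.57 (0.52–0.62), 0.60 (0.55–0.65), −0.04 (−0.08 to −0.01), and −0.03 (−0.06 to 0.01), and 11, 11, 0, and 0 cytosolic members were at least 1.5-fold higher, against 16.9%, 15.7%, 9.48%, and 9.69% of all genes tested in that range. The 11 in libraries 5 and 6 were again from the 12 ATF4-associated synthetases. The part of cell size and of doublets in the ratios was not tested beyond this range.

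The ratio between libraries was accordingly smaller in mitotic-high cells. For library 7 over library 5 the summed cytosolic log2 ratio was 0.64 (0.60–0.67) in mitotic-high, 1.33 (1.31–1.34) in remaining, and 1.38 (1.21–1.55) in Jchain-high cells. For library 8 over library 6 it was 0.59 (0.56–0.63), 1.29 (1.28–1.31), and 1.33 (1.18–1.47). The mitochondrial sum gave 0.33 (0.20–0.45) in mitotic-high, 0.47 (0.43–0.52) in remaining, and 0.80 (0.23–1.42) in Jchain-high cells for library 7 over library 5. Jchain-high cells, few as they were, held 1060, 1192, 2762, and 2994 CPM of cytosolic members in libraries 5 to 8. Remaining cells held 1019, 994, 2555, and 2434 CPM. The log2 ratios of Jchain-high over remaining cells were 0.06 (−0.10 to 0.21), 0.26 (0.14–0.38), 0.11 (0.05–0.17), and 0.30 (0.21–0.38). These intervals pool the UMIs of few Jchain-high cells and leave out variation between those cells.

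Further limits touch individual members. Aars overlaps Exosc6 on the same strand, and Exosc6 had 0 UMIs in every library, so reads from the shared stretch are uncertain. The libraries also differed in their share of mitochondrially encoded UMIs, in B cell marker mRNA, and in the summed mitotic markers (344, 386, 223, and 242 CPM), and the part of these differences in the members' ratios was not tested, beyond the ratios within remaining cells given above.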

How the data were processed

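The authors prepared single-cell libraries with 10x Genomics Chromium 3' v3 chemistry, aligned reads to mm10 and counted UMIs with Cell Ranger (version 3.1.0), and combined the libraries with its aggr step, which evens out sequencing depth between libraries. The deposited values are whole UMI counts per gene and cell, without further normalization. Of 35989 matrix columns the last 19920 were matched in order to the barcodes, and 16069 were not used. Mean expression along the columns shifted most where libraries 5 and 7 then start (percentiles 99.68 and 100 of all columns), with weaker shifts for libraries 6 and 8 (81.15 and 88.29).

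Cells with at least 1000 genes and under 10% mitochondrially encoded UMIs were kept (559 had fewer genes, 1110 more mitochondrial UMIs). UMIs were summed per library and divided by the library total, per 1000000 (CPM). Since no barcode names a sample, no edgeR or DESeq2 test was run. Intervals at 95% are exact Poisson for levels and exact conditional for ratios (SciPy version 1.17.1), and the ratio step was tested on simulated data. edgeR (version 4.0.16) and DESeq2 (version 1.42.0) gave alternative scaling factors only. No doublet caller was run. The rule for named members took the 8 cytosolic and 4 mitochondrial members with the widest range over libraries and the 3 of each class with the narrowest, and other members were named after their values were seen. The members, lists, and promoter motifs were chosen with earlier results of these data known. Positions are from GENCODE vM21 on GRCm38, and promoter windows from RefSeq. Some marker, gene, and sequence results are not reported here.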

Additional observations from a re-analysis of the deposited data

How the results depend on the processing

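The number of cytosolic members past the mark stayed within 1.5 times its reported value in all 72 combinations of library comparison and alternative. The mark was 1.5-fold, except in the alternatives that set it at 25% above equality or at 2-fold. Alternatives with a minimum of 1 or 1000 UMIs could not change the count, since the lowest cytosolic total was 6067 UMIs (Yars). With 23 members, a count of 19 or 20 could pass that limit only by falling. In library 6 over 5 and library 8 over 7 the count was 0 throughout, and a 2-fold mark could not have raised it. The number of mitochondrial members past the mark depended on where it was set. At a mark of 25% above equality, taken in either direction, it was 8 (7 higher, 1 lower) in each comparison across the library pairs. At 2-fold it was 3 in library 7 over 5, 2 in library 8 over 5 and in library 7 over 6, and 1 in library 8 over 6. Shares of all genes at the 25% and 2-fold marks are not given here, so these counts are not read against them. The mitochondrial share of the family's UMIs in library 5 was 11.9% with no cell filter, 10.7% with the stricter filter (1500 genes, 7%), 12.5% as a mean over cells, 12.4% in remaining cells alone, and 12.9% with Aimp2 counted as mitochondrial. In library 6 it was 11.3% with the stricter filter, 12.9% as a mean over cells, 13.1% in remaining cells, and 13.4% with Aimp2 moved. In libraries 7 and 8 it was 7.40% and 7.74% as a mean over cells and 9.20% and 9.46% with Aimp2 moved. Of the members' log2 ratios, 1361 of the alternative values lay inside the counting interval and 463 outside it, and none past 1.5-fold changed direction. For the summed cytosolic log2 ratios between libraries, 32 alternative values were counted as changed and 16 as unchanged. For the summed mitochondrial log2 ratios these numbers were 17 and 31. With mitotic-high cells set at 200 or 1000 CPM, their summed cytosolic log2 ratio over remaining cells ran from 0.57 to 0.73 in libraries 5 and 6 and from −0.07 to 0.03 in libraries 7 and 8. Levels of Pars2, Vars2, and Aars2 are limited by their low counts. No paired analysis was possible because the barcodes carry no replicate number and no result came from a test.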
